A study of Homo sapiens with 9 samples.

Results

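The plasminogen activation system was followed through 5 genes, namely the activators PLAU and PLAT, the urokinase receptor PLAUR, and the serpin inhibitors SERPINE2 and SERPINB2. Every non-control probe assigned by the array annotation to a RefSeq transcript of these genes was taken, which gave 6 of the 50599 probes on the array, with 2 probes for PLAU and 1 for each of the other genes. The 5 genes compare with 21743 gene symbols that could be assigned on the whole array, and 5 probes of 4 genes were well above background on all 9 arrays.

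Transcripts were measured on Agilent arrays with a single colour, in 3 groups of 3 arrays. The A549 line comes from a human lung adenocarcinoma. Parental A549 cells, at passages 98 and 99, were the untransduced control. The OSK-A549-Colony group and the OSK-A549-SN group both carried retroviral OCT3/4, SOX2 and KLF4 and were at later passages, so passage and transduction cannot be told apart in either comparison with parental A549. The colony cells grew as dome-shaped colonies that were picked and subcultured, and were harvested as the cells still attached after a short trypsin treatment. The SN cells were the spindle-shaped cells around those colonies, which came off in trypsin first, so a trypsin step defines both groups. No array held cells with a control vector. The study's methods trace the RNA of all 3 groups to independent transduction experiments, but the labels do not say which arrays share one or how the parental cultures were kept apart, so the p-values measure the spread between these arrays.

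Plasminogen activation turns circulating plasminogen into plasmin, a broad serine protease that degrades fibrin and matrix proteins. Urokinase (PLAU) is secreted as an inactive proenzyme and is held at the cell surface by its lipid-anchored receptor PLAUR, whereas tissue-type plasminogen activator (PLAT) acts mainly on fibrin. Serpins trap the activators in covalent complexes, which are then taken up by endocytic receptors such as LRP1. In lung and other carcinomas the system is known for its part in matrix turnover and cell migration.

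The sequences upstream of PLAU and SERPINE2 are shown because these are the member genes that were called in a comparison. They were taken from RefSeq annotation of GRCh38.p14 and hold the 250 bases before each start used here, 5′ to 3′ on the strand of the gene. PLAU lies on chromosome 10 from 73908832 to 73917494 on the plus strand, and its starts are 522 bases apart here. SERPINE2 lies on chromosome 2 from 223975045 to 224039286 on the minus strand, and its starts are 7162 bases apart. All 4 windows lie inside the annotated span of their gene, so the outer 5′ end of either span has no window. Upstream and downstream name only the order of the windows within a gene. Capitals mark the AP-1 motif TGANTCA and the GC box GGGCGG on either strand.
PLAU upstream window, chr10:73910360-73910609 (plus strand): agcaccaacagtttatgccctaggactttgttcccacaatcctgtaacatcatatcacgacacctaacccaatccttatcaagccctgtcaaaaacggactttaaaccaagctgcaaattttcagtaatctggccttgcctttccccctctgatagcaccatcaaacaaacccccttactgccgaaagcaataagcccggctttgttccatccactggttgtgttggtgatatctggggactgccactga
PLAU downstream window, chr10:73910882-73911131 (plus strand): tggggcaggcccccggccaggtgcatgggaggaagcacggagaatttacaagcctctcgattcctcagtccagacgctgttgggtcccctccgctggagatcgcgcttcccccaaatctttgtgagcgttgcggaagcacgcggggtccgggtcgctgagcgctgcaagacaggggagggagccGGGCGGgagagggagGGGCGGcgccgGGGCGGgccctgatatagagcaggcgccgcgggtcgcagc
SERPINE2 upstream window, chr2:224038641-224038890 (minus strand): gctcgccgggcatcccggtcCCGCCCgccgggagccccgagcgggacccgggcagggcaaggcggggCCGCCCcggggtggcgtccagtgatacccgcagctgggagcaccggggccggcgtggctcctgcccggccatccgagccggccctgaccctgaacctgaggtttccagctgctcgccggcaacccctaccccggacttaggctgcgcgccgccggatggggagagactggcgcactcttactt
SERPINE2 downstream window, chr2:224031479-224031728 (minus strand): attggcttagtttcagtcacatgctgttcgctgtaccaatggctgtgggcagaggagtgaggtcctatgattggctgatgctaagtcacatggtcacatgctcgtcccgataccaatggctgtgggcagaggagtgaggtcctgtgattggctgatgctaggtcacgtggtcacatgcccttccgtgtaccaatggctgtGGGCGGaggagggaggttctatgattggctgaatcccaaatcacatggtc
The downstream PLAU window held 3 GC boxes, beginning 66, 51 and 40 bases before its start, and had a GC content of 68.8%. The upstream PLAU window held no capitals and had a GC content of 46.8%. The downstream SERPINE2 window held 1 GC box at 50 bases and the upstream one held 2, at 230 and 183 bases. Neither gene had an AP-1 match in these windows. PLAUR had 1 AP-1 match, 186 bases before its start, and SERPINB2 had 1 at 102 bases together with the TATA box TATAAA at 30 bases. The motif frequencies over all 35116 windows of this length were 42.6% for the GC box, 6.57% for AP-1 and 10.7% for TATAAA. Letters bound by the transduced factors were also searched on both strands. The octamer ATGCAAAT, found in 1.63% of all windows, and the SOX letters CATTGT, found in 9.29%, were in none of the member windows searched. The KLF letters CACCC, found in 54.7%, were in the PLAUR window and in the upstream SERPINE2 window. For 4 of the 5 genes a window was used. PLAT was left out of this search, so neither a match nor the lack of one is given for it. A match is only a description of the letters.

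The intensities below are the scanner's background-subtracted values, and the log2 values are these intensities relative to the 75th percentile of the same array, which lay between 217.5 and 270.6. Between 25808 and 29315 probes per array were well above background. The lowest intensity among such probes was 9.16 to 14.4, and no spot other than the control spots, which were not counted, was saturated. All 5 epithelial markers (KRT7, KRT18, KRT19, EPCAM and CDH1) were above background on every array, with a summed intensity of 356183 to 372355 on the parental arrays, 340325 to 353353 on those of OSK-A549-Colony and 367281 to 374333 on those of OSK-A549-SN. KRT7 and KRT18 made up most of that sum, and the others moved in different directions. The mean log2 level of CDH1 was 3.42 on the parental arrays, 2.43 on those of OSK-A549-Colony and 2.59 on those of OSK-A549-SN. EPCAM was at 2.43, 2.06 and 1.71 and KRT19 at 3.55, 4.72 and 3.50, in the same order of groups. Of 7 fibroblast or mesenchymal stem cell markers, 6 were above background on no array. PECAM1, TIE1 and CLDN5 of the 6 endothelial markers were also on none, whereas CDH5 and VWF were on all arrays. Of 4 blood cell markers, PTPRC, CD14 and HBB were above background on all arrays. The mean log2 level of HBB was -2.79 on the parental arrays, -1.04 on those of OSK-A549-Colony and -2.53 on those of OSK-A549-SN, and that of CD14 was 1.99, 1.25 and 1.82. The part of all these markers in the results was not tested. Of the 9 arrays, 8 shared slide 1, while replicate 3 of OSK-A549-SN was the only one on slide 2, so slide and array cannot be told apart for it.

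PLAU, the secreted activator of plasminogen known as urokinase, was measured by 2 probes, and both were higher in each transduced group than in parental A549. Probe A_23_P24104, for transcript NM_002658, was printed in 10 spots. Its intensities were 1489, 2345 and 2766 on the parental arrays, 6992, 7442 and 8294 on those of OSK-A549-Colony and 5352, 5834 and 6117 on those of OSK-A549-SN, for replicates 1, 2 and 3. No array of one group overlapped with another group, and OSK-A549-Colony was the highest. On the log2 scale the levels were 3.14 ± 0.56 on the parental arrays, 4.96 ± 0.15 on those of OSK-A549-Colony and 4.59 ± 0.13 on those of OSK-A549-SN (SD, n = 3 each). Probe A_33_P3306146, for transcript NM_001145031, had 1 spot. It read 91.9, 160.9 and 170.5 on the parental arrays, 498.1, 526.4 and 533.9 on those of OSK-A549-Colony and 387.5, 394.5 and 362.6 on those of OSK-A549-SN. The order of the groups was the same as with the first probe, again without overlap. Its log2 levels were -0.83 ± 0.58, 1.10 ± 0.10 and 0.67 ± 0.23 (SD, n = 3 each), in the same order of groups.

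PLAT, the tissue-type activator, was dim on all arrays and showed a different order, with OSK-A549-SN the highest. Probe A_23_P82868, for NM_000930, was printed in 10 spots. Its intensities were 22.3, 36.1 and 56.2 on the parental arrays, 46.3, 40.8 and 41.8 on those of OSK-A549-Colony and 71.3, 82.2 and 90.5 on those of OSK-A549-SN. All OSK-A549-SN arrays lay above the other 6 arrays, while the parental arrays spread across the range of OSK-A549-Colony and beyond it on both sides. The log2 levels were -2.78 ± 0.79 on the parental arrays, -2.51 ± 0.06 on those of OSK-A549-Colony and -1.57 ± 0.15 on those of OSK-A549-SN (SD, n = 3 each).

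PLAUR, the receptor that concentrates urokinase on the cell surface, varied least among the detected members. Probe A_23_P16469, for NM_001005377, read 566.3, 707.6 and 740.4 on the parental arrays, 1147, 892.2 and 852.4 on those of OSK-A549-Colony and 846.6, 788.8 and 694.8 on those of OSK-A549-SN. The OSK-A549-Colony arrays were above all others by intensity, and OSK-A549-SN overlapped with the parental arrays. On the scaled log2 values OSK-A549-SN overlapped with both groups. The log2 levels were 1.47 ± 0.31 on the parental arrays, 1.98 ± 0.19 on those of OSK-A549-Colony and 1.70 ± 0.29 on those of OSK-A549-SN (SD, n = 3 each).

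SERPINE2, or protease nexin-1, inhibits thrombin, urokinase and plasmin. Probe A_23_P50919, for NM_006216, read 141.8, 157.1 and 177.0 on the parental arrays, 515.3, 404.5 and 355.1 on those of OSK-A549-Colony and 446.3, 375.6 and 340.7 on those of OSK-A549-SN. Both transduced groups were above all parental arrays and overlapped with each other. The log2 levels were -0.61 ± 0.28 on the parental arrays, 0.79 ± 0.24 on those of OSK-A549-Colony and 0.69 ± 0.32 on those of OSK-A549-SN (SD, n = 3 each). SERPINB2, the plasminogen activator inhibitor-2, did not rise well above background on a single array, with intensities of 1.94 to 13.1 over the 9 arrays. It entered no test and no order of its levels can be given.

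The parental arrays were the most widely spread for PLAU and PLAT. Parental A549 replicate 1 was the lowest parental array for all 5 detected member probes, and lay 0.67, 0.82 and 0.72 below the next parental array on the log2 scale for the 2 PLAU probes and PLAT. The gaps were 0.33 for PLAUR and 0.16 for SERPINE2. The PLAU intensities of the brighter probe thus differed 1.86-fold within parental A549 before scaling and 2.17-fold after it. Within OSK-A549-SN, replicate 3, which was alone on its slide, was the lowest array for both PLAU probes, PLAUR and SERPINE2 on the log2 scale, but not for PLAT.

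The first comparison asked how the colony cells differed from the parental line. PLAU and SERPINE2 were called higher in OSK-A549-Colony, which is 3 of the 5 detected member probes, where 3.7% of the 30864 tested probes were called in either direction and 1.71% were called higher. The 5 genes were not drawn at random, and 2 of the 5 probes measure PLAU in the same RNA, so the probes are not separate genes. These shares are set side by side as a description. A call means a Benjamini-Hochberg adjusted p under 0.05 over all tested probes in limma and a fold change over 2. The log2 fold change of PLAU was 1.82 (SE 0.30, adjusted p = 0.0308 in limma) with the first probe, or 3.53-fold with a 95% confidence interval of 2.13 to 5.87. The second PLAU probe gave 1.93 (SE 0.30, adjusted p = 0.0284 in limma), or 3.80-fold. SERPINE2 was higher by 1.40 (SE 0.20, adjusted p = 0.0250 in limma), or 2.65-fold with an interval of 1.88 to 3.72. PLAUR did not pass, at 0.51 (95% confidence interval 0.03 to 1.00, adjusted p = 0.150 in limma). PLAT was at 0.26 (95% confidence interval -0.71 to 1.24, adjusted p = 0.673 in limma). Of the 5 probes, 4 had OSK-A549-Colony arrays all above the parental ones, against 20.9% of all tested probes. The median log2 fold change was 1.40 over the member probes and -0.03 over all tested probes. As these are bulk RNA samples, fewer cells expressing a gene and less RNA of it per cell cannot be told apart.

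The 3 member calls against parental A549 depended on single arrays. All 3 remained when parental A549 replicate 1 or replicate 3 was left out. None was called without OSK-A549-Colony replicate 1, 2 or 3 or without parental A549 replicate 2, where 141, 0, 85 and 1 probes of the whole array were called. The fold changes moved less, to 1.52 to 2.08 and 1.60 to 2.16 for the 2 PLAU probes and to 1.28 to 1.56 for SERPINE2 on the log2 scale over the 6 arrays left out in turn. The PLAT difference turned to -0.12 without parental A549 replicate 1. With the replicate number as a block none of the 3 was called (adjusted p = 0.118 for both PLAU probes and 0.126 for SERPINE2 in limma). Without the detection filter the first PLAU probe lost its call (adjusted p = 0.0516 in limma).

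The second comparison asked how the spindle-shaped cells differed from the parental line. PLAU, SERPINE2 and PLAT were more than 2-fold higher in OSK-A549-SN by their fitted means, but 0 of 5 member probes were called, where 1.55% of the 32218 tested probes were called. PLAU was at 1.45 (SE 0.30, adjusted p = 0.0737 in limma) and 1.50 (SE 0.31, adjusted p = 0.0777 in limma) with the first and second probe, or 2.73-fold and 2.83-fold. SERPINE2 was at 1.30 (SE 0.23, adjusted p = 0.0575 in limma), or 2.46-fold. PLAT was at 1.21 (SE 0.40, adjusted p = 0.165 in limma), or 2.31-fold, with a 95% confidence interval of 1.18 to 4.54. With an array left out PLAT was between 0.82 and 1.62, so it did not stay above 2-fold in every fit. PLAUR was at 0.23 (95% confidence interval -0.33 to 0.79, adjusted p = 0.592 in limma), and between 0.07 and 0.40 with an array left out. All OSK-A549-SN arrays were above the parental ones for 4 of the 5 probes (2 of them for PLAU), against 16.8% of all tested probes. Both comparisons use the same parental arrays, so they are not independent of each other.

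The calls for OSK-A549-SN changed with the processing. Both PLAU probes and SERPINE2 were called when all 9 arrays were fitted together (adjusted p = 0.0187, 0.0192 and 0.0155 in limma), when probes had to be detected on all arrays of a group (adjusted p = 0.0243, 0.0259 and 0.0170) and with normexp background correction (adjusted p = 0.0197, 0.0173 and 0.0139). PLAT was not called under any of these. Its difference from parental A549 was 0.53 with normexp, which adds an offset and pulls dim probes together. No member probe was called with quantile normalization, without the detection filter, or with slide or replicate as a block. None was called with any array left out. There the adjusted p in limma was 0.0626 to 0.229 and 0.0758 to 0.238 for the first and second PLAU probe. That of SERPINE2 was 0.0674 to 0.204.

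The third comparison set the 2 kinds of transduced cells against each other. PLAT had a lower fitted mean in the colony cells than in the SN cells, at -0.94 (SE 0.11, adjusted p = 0.0958 in limma), which is 1.92-fold with a 95% confidence interval of -1.21 to -0.68 on the log2 scale. It ranked 52 by p among 31746 tested probes, and 0 of them, or 0%, were called, the smallest adjusted p being 0.0930 in limma. At an unadjusted p under 0.05 and a fold change over 2, 662 probes passed. No overlap between the groups with OSK-A549-Colony lower was seen for PLAT and for 17.3% of all tested probes. The 2 PLAU probes were at 0.37 (95% confidence interval 0.07 to 0.68, adjusted p = 0.202 in limma) and 0.43 (95% confidence interval 0.08 to 0.77, adjusted p = 0.202 in limma), with all OSK-A549-Colony arrays higher, as in 13.5% of all tested probes. PLAUR was at 0.28 (95% confidence interval -0.18 to 0.74, adjusted p = 0.428 in limma), and between 0.12 and 0.37 with an array left out. SERPINE2 was at 0.10 (95% confidence interval -0.41 to 0.62, adjusted p = 0.790 in limma), an interval that leaves out a 2-fold difference in either direction.

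The adjusted p of PLAT between the transduced groups fell to 0.0367 in limma when probes had to be detected on all arrays of a group, and to 0.0360 with normexp, where the difference was only -0.46. It stayed under 2-fold in both and was not called. The adjusted p rose to 0.282 when all 9 arrays were fitted together, to 0.178 without the detection filter, to 0.146 with slide as a block, to 0.224 with the replicate block and to between 0.134 and 0.318 with an array left out. Leaving out 1 array at a time kept it between -1.01 and -0.86.

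**Figure D1:**
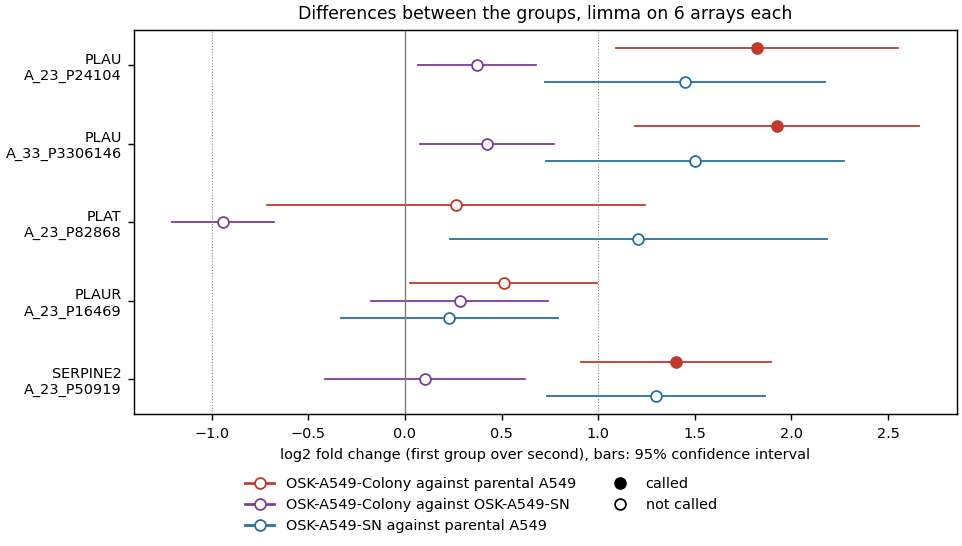
The plot gives the limma log2 fold change of each detected member probe on the x axis in 3 comparisons, with 95% confidence intervals as bars and dotted lines at a 2-fold change. Filled symbols, the called ones, are the 2 PLAU probes (1.82 and 1.93) and SERPINE2 (1.40) in OSK-A549-Colony against parental A549, and PLAT (-0.94) is the only probe with a negative difference, in OSK-A549-Colony against OSK-A549-SN.

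**Figure D2:**
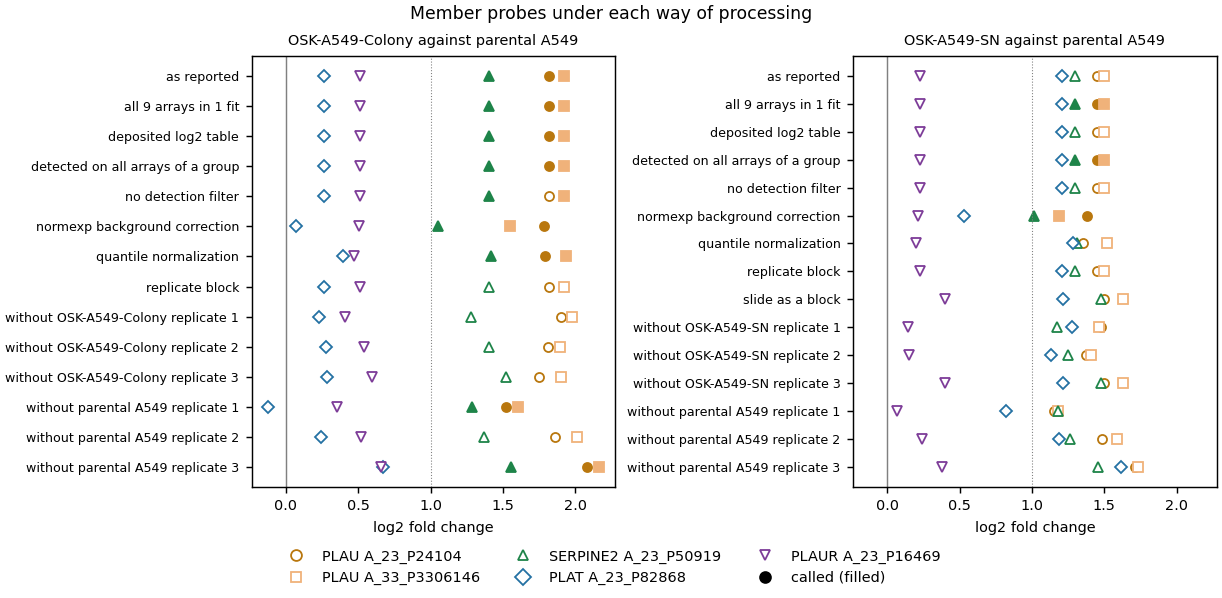
Each row is a way of processing or a left-out array, and the x axis gives the log2 fold change of the 5 detected member probes against parental A549, for OSK-A549-Colony in the left panel and OSK-A549-SN in the right. Filled symbols are called. The PLAU symbols stay between 1.52 and 2.16 on the left, and PLAT crosses 0 only without parental A549 replicate 1 (-0.12).

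The other genes of the system were followed through a list of 43, with the brightest probe for each gene, of which 35 were tested and 8 were above background on no array. The 8 were PLG (plasminogen itself), F11, SERPINA5, A2M, PZP, CPB2, HPN and KLK4. Against parental A549, the fit put 2 of the 35 genes past the call threshold as higher and 1 as lower in OSK-A549-Colony. In OSK-A549-SN it put 2 past it as higher and none as lower, and between the transduced groups none was called in limma. The calls over all tested probes came to 3.7% for OSK-A549-Colony against 1.55% for OSK-A549-SN. In each of these comparisons 1 of the 2 higher genes was ITGB3, which was above background on no parental array and entered the fits through the transduced arrays alone, so its p rests on parental values below background and does not count as support. The genes measured in both groups and called were THBD (higher) and LRP1 (lower) for OSK-A549-Colony and TFPI2 (higher) for OSK-A549-SN. The median log2 fold changes were -0.01, -0.03 and -0.07, against -0.03, 0.08 and -0.06 over all tested probes. The signs were mixed, with 16 genes positive and 19 negative in each comparison with parental A549.

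Of the 8 other inhibitors 4 were tested, and TFPI2 was the one called, in OSK-A549-SN. TFPI2, a Kunitz-type inhibitor of plasmin and other proteases, read 11645, 10341 and 10141 on the parental arrays, 18151, 16066 and 19186 on those of OSK-A549-Colony and 23675, 19328 and 22689 on those of OSK-A549-SN. Its log2 fold change in OSK-A549-SN was 1.04 (SE 0.14, adjusted p = 0.0398 in limma). In OSK-A549-Colony it was at 0.73 (adjusted p = 0.0283 in limma), below 2-fold. OSK-A549-SN was above OSK-A549-Colony on all arrays, at a difference that did not pass (-0.32, adjusted p = 0.226 in limma). SERPINI1 (neuroserpin, an inhibitor of tissue-type plasminogen activator) had the change farthest from 0 of the 4 in OSK-A549-Colony. Its intensities were 91.9, 126.9 and 45.1 on the parental arrays, 48.5, 31.0 and 46.2 on those of OSK-A549-Colony and 40.6, 25.6 and 51.9 on those of OSK-A549-SN. On the scaled log2 values the parental arrays were above all others, although 1 parental intensity was not. The log2 fold change was -0.98 in OSK-A549-Colony (SE 0.36, adjusted p = 0.138 in limma) and -1.08 in OSK-A549-SN (adjusted p = 0.175 in limma), and neither passed the test.

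Among the 12 partners and clearance receptors of PLAUR, all tested, ITGB3 (integrin beta-3, a subunit of the vitronectin receptor) had only a bound in parental A549, and LRP1 (the endocytic receptor for activator and inhibitor complexes) was called lower in OSK-A549-Colony. ITGB3 read 3.3 to 3.7 in parental A549, where it was not well above background, and 45.3, 42.2 and 29.7 in OSK-A549-Colony, which is at least 2.91-fold higher (the fit, on values below background in parental A549, gave an adjusted p of 0.0126 in limma). In OSK-A549-SN it read 16.0, 8.71 and 13.99 and was above background on 2 of 3 arrays. The bound came to less than 1 there, so no fold is given and the adjusted p of the fit (0.0368 in limma) shows no difference above the background level. The LRP1 probe A_23_P124837 read 99.5, 127.9 and 139.6 on the parental arrays, 68.9, 61.9 and 49.98 on those of OSK-A549-Colony and 69.1, 62.2 and 55.3 on those of OSK-A549-SN. Its log2 fold change was -1.03 in OSK-A549-Colony (SE 0.22, adjusted p = 0.0475 in limma) and -0.96 in OSK-A549-SN (adjusted p = 0.108 in limma). A second LRP1 probe, A_33_P3391105, gave -0.27 in OSK-A549-Colony (adjusted p = 0.403 in limma) and 0.09 in OSK-A549-SN (adjusted p = 0.819 in limma), where its sign was opposite to that of the first probe. The difference between the probes was not tested. VLDLR, another endocytic receptor of such complexes, was at 0.84 (adjusted p = 0.0240 in limma) and ITGB5 at -0.60 (adjusted p = 0.0462 in limma) in OSK-A549-Colony, both below 2-fold.

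The 5 plasminogen receptors, all tested, moved little, from -0.36 to 0.17 on the log2 scale in OSK-A549-Colony against parental A549, and none was called. The farthest from 0 was KRT8, a keratin that binds plasminogen at the cell surface, at -0.36 (adjusted p = 0.0969 in limma). Of the 5 activators of pro-urokinase, 3 were tested and none was called. CTSL, the lysosomal protease cathepsin L, was at 0.69 in OSK-A549-Colony (adjusted p = 0.0362 in limma), under 2-fold. Of the 4 plasminogen and contact-phase proteases, 2 were tested, and F12, the contact factor XII, was at -0.22 (adjusted p = 0.223 in limma).

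All 9 genes of thrombin generation and thrombin receptors were tested. THBD, the thrombomodulin that turns thrombin towards protein C activation, was called higher in OSK-A549-Colony. It read 1096, 1417 and 1117 on the parental arrays, 2869, 2319 and 2378 on those of OSK-A549-Colony and 2185, 1964 and 1633 on those of OSK-A549-SN, with no overlap between the groups. The log2 fold changes against parental A549 were 1.06 (SE 0.14, adjusted p = 0.0232 in limma) in OSK-A549-Colony and 0.69 (adjusted p = 0.160 in limma) in OSK-A549-SN. The THBD call was kept in only 1 of 6 fits with an array left out. PROCR, the endothelial protein C receptor, was at -0.59 in OSK-A549-Colony (adjusted p = 0.0471 in limma), below 2-fold. The 4 thrombin and protease-activated receptors F2R, F2RL1, F2RL2 and F2RL3 were not called in any comparison, and F2RL2 was at 1.14 in OSK-A549-Colony against OSK-A549-SN (adjusted p = 0.102 in limma).

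The calls of the list were also sensitive to processing. With normexp, no gene of the list was called in OSK-A549-Colony, and ITGB3, THBD and LRP1 were at 0.62, 0.97 and -0.60. ITGB3 was at 0.24 in OSK-A549-SN and not called. LRP1 also lost its call with quantile normalization (adjusted p = 0.0549 in limma) and without the detection filter (adjusted p = 0.0857 in limma). With the replicate block LRP1 and THBD both lost their calls (adjusted p = 0.157 and 0.125 in limma). With an array left out, each kept its call in only 1 of 6 fits. LRP1 was then at -1.21 to -0.85 (adjusted p = 0.0403 to 0.150 in limma) and THBD at 0.95 to 1.14 (adjusted p = 0.0318 to 0.109). TFPI2 lost its call in OSK-A549-SN without the detection filter (adjusted p = 0.0609 in limma), with quantile normalization, where it fell below 2-fold (0.92), with slide as a block (adjusted p = 0.0671), with the replicate block (adjusted p = 0.175) and with any array left out (0.96 to 1.10, adjusted p = 0.0610 to 0.162). Leaving out single arrays gave 0 to 3 called genes for OSK-A549-Colony (SERPINI1 among them without parental A549 replicate 3), and 0 for OSK-A549-SN whichever of its 6 arrays was left out. Between the transduced groups, F2RL2 was called with normexp and when probes had to be detected on all arrays of a group. ITGB3 also passed the threshold under that filter, which it met through OSK-A549-Colony alone, so its p does not count as support.

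**Figure D3:**
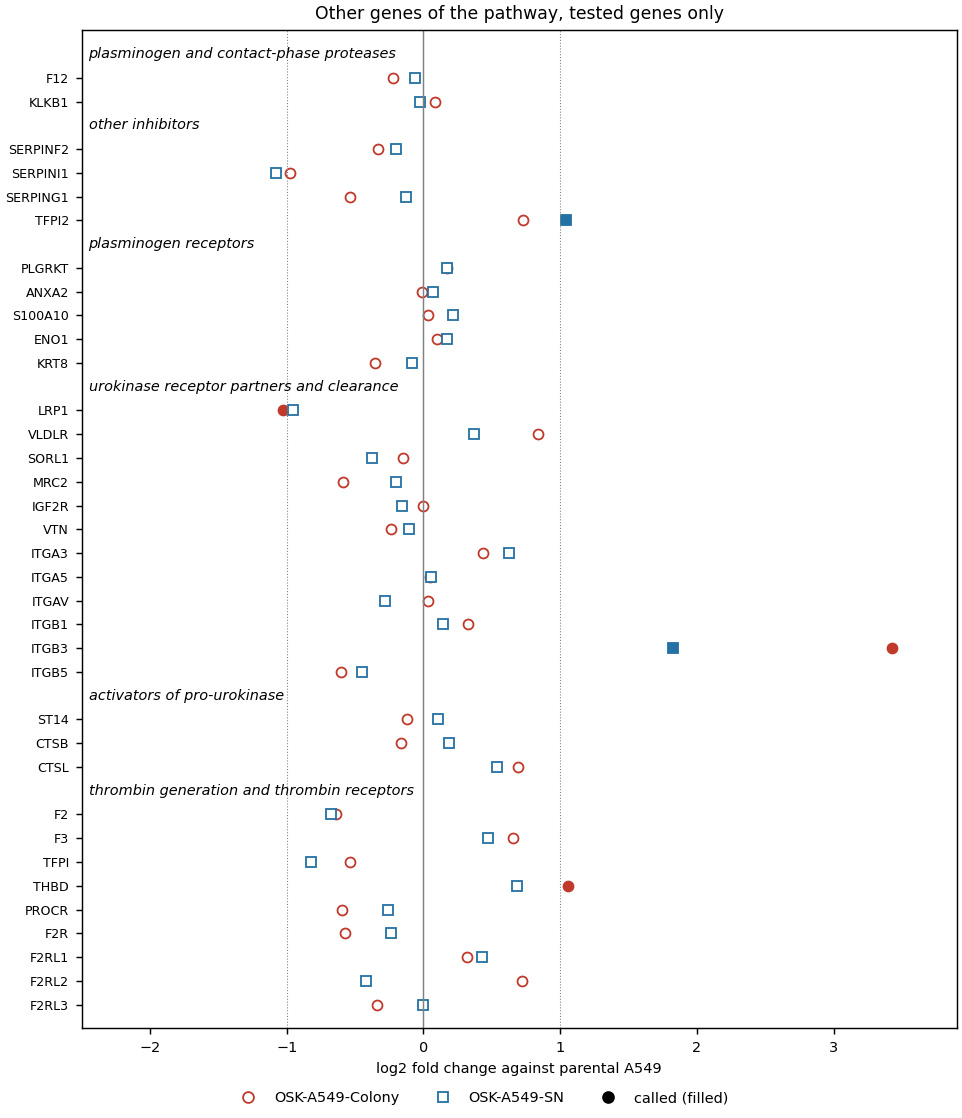
The plot gives the log2 fold change against parental A549 on the x axis for the 35 tested genes of the system, grouped by role, with OSK-A549-Colony as circles and OSK-A549-SN as squares. Filled symbols are called, and dotted lines mark a 2-fold change. ITGB3 stands farthest to the right, its values resting on parental arrays that were not well above background, and LRP1 (-1.03) is the only gene called lower.

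The genes with the profiles nearest to each detected member were found among 23758 probes above background on all 9 arrays, by the root mean square difference of log2 values centred on their mean. For PLAU, whose own profile had a root mean square of 0.835, they were NIPAL4, TWIST2 and EFEMP1 at 0.143, 0.169 and 0.190. For PLAT (0.644) they were PTGES, EDN2 and ANXA8L1 at 0.228, 0.233 and 0.265. For PLAUR (0.303) they were PCSK6, MYH9 and IRF7 at 0.0938, 0.103 and 0.109. For SERPINE2 (0.679) they were PDLIM7, PODXL and PREX1 at 0.111, 0.133 and 0.149. All genes were compared over the same 9 arrays, and no other member was among the 3 nearest of any member.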

How the data were processed

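The authors hybridised Cy3-labelled RNA to single-colour Agilent arrays and deposited the scanner output of Feature Extraction 11.5.1.1, which holds the intensity of each spot after background subtraction. A log2 table of the same arrays was also deposited by the authors. In all 9 arrays 100% of its probes equalled the values computed here after 1 shift per array, within 0.001. The authors' analysis used GeneSpring GX.

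Control spots (4259 of 62976 per array) and outlier-flagged spots were left out, spots of a probe were averaged, and each array's 75th percentile was subtracted on the log2 scale. Detection of a probe required that 0.5 or more of its spots be positive and well above background. Accessions were matched without versions to a RefSeq gene table. Fits used lmFit and eBayes of limma 3.58.1 (R 4.3.3), for each comparison on its own 6 arrays, over probes detected on at least 1 of them. Only 3 arrays per group limit the precision.

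The members and lists were chosen with earlier results of these data known. Named genes are all members, called genes of the list, the largest detected change per role and the 3 nearest profiles. VLDLR, ITGB5, PROCR and the 4 thrombin and protease-activated receptors were named after their values were seen. The markers and the list were written from general knowledge, and 1 gene that the list had held is not reported here. The bound for ITGB3 replaces each dim array by its lowest value well above background, or by the measured value if that is larger. Alternatives were normexp (offset 50, on median spot brightness), quantile normalization, 2 other detection filters, slide or replicate block, 1 fit of all 9 arrays, the deposited log2 table, and each array left out. The fit was tested on simulated data. The array annotation predates GRCh38.p14, so no probe coordinates are given. The study's other experiments are not analysed here.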

Additional observations from a re-analysis of the deposited data

How the results depend on the processing

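Over 13 or 14 alternatives per comparison, 201 of 205 member differences kept their direction. The exceptions were PLAT in OSK-A549-Colony against parental A549 without parental A549 replicate 1 (-0.12), and SERPINE2 in OSK-A549-Colony against OSK-A549-SN with slide as a block or without OSK-A549-SN replicate 3 (-0.074) and without OSK-A549-Colony replicate 1 (-0.02). With arrays left out, these ranged from -0.12 to 0.67 and from -0.074 to 0.23. The cause of the changes below was not tested.

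OSK-A549-Colony against parental A549 had 1143 calls, but 583 without the detection filter (PLAU A_23_P24104 at 1.82, adjusted p = 0.0516 in limma), 333 with normexp (0 list genes) and, with arrays left out, 0 to 1362 (0 to 3 member probes, 0 to 3 list genes, PLAU 1.52 to 2.08 and 1.60 to 2.16, SERPINE2 1.28 to 1.56). OSK-A549-SN against parental A549 had 498 calls, but 1085 in 1 fit of all arrays, 980 with detection on all arrays of a group, 215 without the filter, 232 with normexp, 187 with slide as a block and 0 to 190 with arrays left out. Under the first 2 of these and normexp, 3 member probes were called, with PLAU at 1.45 and 1.50 and SERPINE2 at 1.30, and 1.38, 1.19 and 1.01 with normexp. List genes called were 1 with detection on all arrays of a group and with normexp (TFPI2), 1 without the filter and with quantile normalization (ITGB3), and 0 with slide as a block and with any array left out. OSK-A549-Colony against OSK-A549-SN had 0 calls, but 9 in 1 fit, 139 with detection on all arrays of a group (2 list genes, F2RL2 and ITGB3, the latter detected on all arrays of OSK-A549-Colony alone) and 32 with normexp (1 list gene).

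With the replicate block, 0 probes were called in any comparison, so 0 member probes and 0 list genes. In OSK-A549-Colony against parental A549 it left PLAU at 1.82 and 1.93 (adjusted p = 0.118 in limma for both) and SERPINE2 at 1.40 (adjusted p = 0.126). The deviations of same-numbered arrays correlated at -0.05 to -0.01 between OSK-A549-Colony and parental A549 and at -0.20 to 0.15 between OSK-A549-SN and parental A549, so these numbers were not taken as pairs. Between the transduced groups the 3 correlations were 0.24, 0.07 and 0.14, same-numbered arrays share a passage number, and each array correlated best with its own number. This is a hint of pairing that the labels do not state, and 1 correlation was under the 0.1 required, so the block stayed an alternative there. It moved PLAT to an adjusted p of 0.224 and PLAUR to 0.337 in limma.

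The share of calls that were higher in OSK-A549-Colony was 46.3%, and 55.8% with quantile normalization. In OSK-A549-SN it was 45.6%, and 74.9% with slide as a block. With arrays left out it was 36.9% to 81.2% in OSK-A549-Colony and 20.5% to 74.2% in OSK-A549-SN, over the fits with at least 44 calls. The median of all probes moved by more than 0.1 without the filter, to -0.15 in OSK-A549-Colony and to -0.05 in OSK-A549-SN against parental A549. Slide as a block could not be fitted for OSK-A549-Colony against parental A549, as all 6 arrays were on slide 1. PLAT was well above background on every array but dim, and ITGB3 was well above background on no parental array. The part of these low signals in their differences was not tested.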
